A study of Mus musculus with 10 samples.

Results

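The genes described here are 35 of the 56748 genes in a mouse liver count table that serve fatty acid oxidation, ketone body formation and the response to the nuclear receptor PPAR-alpha. They were chosen by name and arranged by role and by the cell compartment in which their products work. They comprise 1 receptor, 4 genes of fatty acid activation and the carnitine shuttle, 10 of mitochondrial beta-oxidation, 3 of electron transfer, 1 of ketone body formation, 7 of the peroxisome, 5 acyl-CoA thioesterases and 4 other PPAR-alpha targets. Each of the 35 names had 1 row in the table, and all 35 passed the filter on low counts, as 14068 genes of the whole table did.

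Liver RNA was sequenced in 5 libraries labelled ACSS2-HKO (HKO) and 5 labelled ACSS2-flox (flox), all from mice fed a high-fat, high-fructose diet for 4 months. ACSS2 makes acetyl-CoA from acetate in the cytosol and nucleus. The design describes the knockout as specific to liver cells, and the study asks about its role in steatohepatitis, the inflamed form of fatty liver. No source used here gives the Cre driver, the deleted exons, sex, age, litter or fasting state. Whether each library came from its own animal is not stated either, so the p-values measure the spread between these samples, which may be technical in part. No group on another diet or without the floxed allele was analysed here.

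In liver, long-chain fatty acids are joined to coenzyme A, carried into mitochondria as carnitine esters and shortened by repeated rounds of dehydrogenation, hydration, dehydrogenation and thiolysis. Peroxisomes start the work on very long chains, and much of the acetyl-CoA made during fasting becomes ketone bodies. PPAR-alpha, which binds fatty acids, raises most genes of this pathway in fasted rodents, and genes such as Acot1, Pdk4 and Fgf21 are among its well-known targets.

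Total counts were 15413648 to 19275358 in HKO and 16933436 to 17196774 in flox. A count of 3 was worth 0.156 to 0.195 CPM (counts scaled to library size), a floor that covers counting error only. Levels below are CPM after TMM scaling (a correction for library composition), and a fold change is the log2 of HKO over flox, given ± its standard error (SE). Means are given ± SD over the 5 libraries of a group. Acss2 itself was at 52.8, 58.99, 43.8, 40.2 and 51.4 CPM in HKO and 73.2, 86.9, 56.5, 129 and 58.6 CPM in flox, and its log2 fold change, -0.71 ± 0.21, missed the threshold (edgeR adjusted p = 0.0858). It passed in 4 of 18 alternatives (DESeq2, library totals alone, no filter on low counts, and without flox replicate 3), with adjusted p from 0.0346 to 0.186 over all 18. Hepatocyte markers were abundant in every library, with 0 of 14 called. Their log2 fold changes were positive for 12 and negative for 2, with a median of 0.22, while 51% of all tested genes were positive. An unadjusted edgeR p under 0.05 was found for 4 of the 14, against 16.9% of all tested genes. Alb had a log2 fold change of 0.16 ± 0.21, and Trf, 1 of the 2 negative markers, had -0.36 ± 0.16. Macrophage markers fell, 14 of 14, and their summed level was 126 to 264 CPM in HKO and 340.0 to 836 CPM in flox. Of the sinusoidal endothelial markers 1 of 8 (Cdh5) and 1 lymphocyte marker of 5 tested (Igkc) fell, and 0 of 8 stellate cell, 0 of 5 cholangiocyte and 0 of 3 tested neutrophil markers were called. Called or not, the log2 fold change was negative for 8 of 8 endothelial, 5 of 5 lymphocyte and 3 of 3 neutrophil markers (medians -0.44, -0.24 and -1.18). It was negative for 5 of 8 stellate cell and 4 of 5 cholangiocyte markers (medians -0.17 and -0.46). An unadjusted edgeR p under 0.05 was found for 2 of 8 endothelial, 3 of 8 stellate cell and 0 of 5 cholangiocyte markers. It was found for 1 of 5 tested lymphocyte and 2 of 3 tested neutrophil markers. The stellate cell markers Col1a1 and Col3a1 had -2.20 ± 0.69 and -1.33 ± 0.44, each highest in flox replicate 5. The neutrophil marker Csf3r was called in 1 of 18 alternatives. The call of Cdh5 was kept in 13 of 18 alternatives (adjusted p up to 0.0722) and ended without HKO replicate 1, 2 or 4 or flox replicate 4 or 5. That of Igkc was kept in 9 of 18 (up to 0.102) and ended with limma-voom, with robust dispersion, and on leaving out HKO replicate 1, 2, 4 or 5 or flox replicate 3, 4 or 5. None of the skeletal muscle markers passed the filter, nor did any adipocyte marker but Cfd or any pancreatic acinar marker but Cela1, and neither of these was called. The 4 tested Y-linked genes were read in all 10 libraries and not called. Xist had 21 counts over HKO and 25 over flox and did not pass the filter. The libraries of both groups thus read as male, although no source used here states the sex.

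None of the 35 genes differed between HKO and flox at an edgeR adjusted p under 0.05, and DESeq2 and limma-voom also called 0. DESeq2 gave no adjusted p for Pdk4. Among all 14068 tested genes, 3.99% were called (561 genes, 0.917% higher and 3.07% lower in HKO). That number of genes ran from 289 to 673 with 1 library left out, and was more than 1.5 times smaller without HKO replicates 1, 4 or 5 (335, 289 and 354) or flox replicate 5 (361). Of the 35, 22 had a positive and 13 a negative log2 fold change, while 51% of all tested genes had a positive one. The median of the 35 was 0.10 against 0.01 over all tested genes. An unadjusted p under 0.05 was found for 5 of the 35, against 16.9% of all tested genes, and the HKO and flox libraries did not overlap for 1 of the 35, against 5.37% of all tested genes. The 95% confidence interval of the fold change lay within 2-fold in either direction for 26 of the 35, against 72.0% of all tested genes. By compartment, the median log2 fold change was 0.00 for 18 mitochondrial genes, 0.13 for 10 peroxisomal genes, 0.44 for the 2 genes of the outer mitochondrial membrane and 0.45 for 3 secreted or surface proteins. In whole liver, fewer cells of a type and less RNA per cell cannot be told apart.

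Alternatives in scaling, filter, dispersion and model left the count at 0. Leaving out flox replicate 2 gave 1 call, Acot1 (log2 fold change 1.39, edgeR adjusted p = 0.049). With library totals in place of TMM scaling, the median of the 35 was -0.03 and that of all tested genes -0.10, so the median of the 35 was above that of all genes with either scaling. With 1 library left out, the median of the 35 ran from -0.03 to 0.22. In the main fit the hepatocyte markers had a higher median, 0.22.

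**Figure D1:**
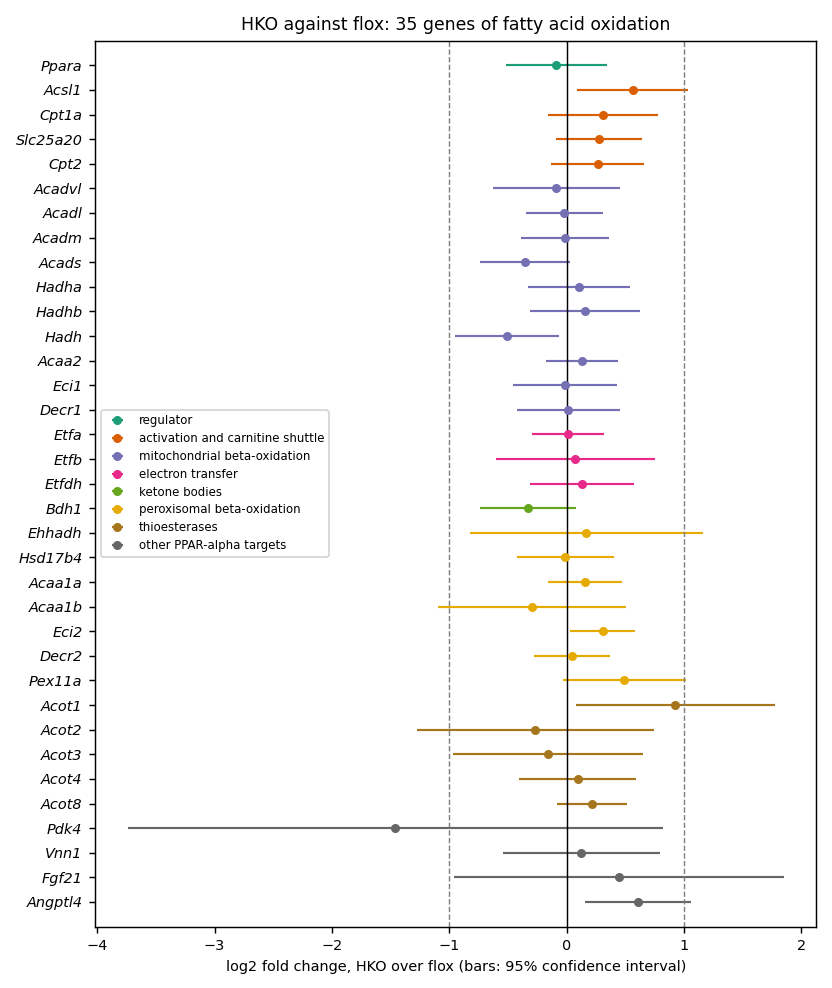
Log2 fold change of HKO over flox for each of the 35 genes, coloured by role, with 95% confidence intervals from the edgeR fit (5 libraries a group); dashed lines mark 2-fold. Most intervals are narrow and cross 0, 5 lie to one side of 0 (Acsl1, Hadh, Eci2, Acot1 and Angptl4), and Pdk4 has the widest, from -3.74 to 0.82.

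Ppara encodes the receptor. It was at 88.9, 78.7, 80.9, 121 and 83.2 CPM in HKO replicates 1 to 5 and 107, 116, 62.5, 72.1 and 123 CPM in flox replicates 1 to 5. The groups overlapped, HKO replicate 4 stood above the other HKO libraries, and the log2 fold change was -0.09 ± 0.20 (edgeR adjusted p = 0.882). Of 16 partners and related regulators measured, 0 were called, with a median of 0.03. The most abundant were Hnf4a, a hepatocyte transcription factor (596 ± 140.3 CPM in HKO and 558 ± 128 CPM in flox), and Rxra, the receptor with which PPAR-alpha binds DNA (353 ± 81.5 CPM in HKO and 369.9 ± 44.4 CPM in flox; SD, n = 5 each).

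The 4 genes of activation and the carnitine shuttle all had positive log2 fold changes, with a median of 0.29, and 0 of 4 were called. Acsl1, the main liver acyl-CoA synthetase for long chains, was at 2409, 2289, 1287, 2069.6 and 1846 CPM in HKO replicates 1 to 5 and 1383, 1838, 1367, 838 and 1272 CPM in flox replicates 1 to 5. HKO replicate 3 lay inside the flox range, and the other 4 HKO libraries were above every flox library, HKO replicate 5 only just. The log2 fold change was 0.56 ± 0.22, a 1.48-fold difference (unadjusted p = 0.0225, edgeR adjusted p = 0.194).

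Cpt1a makes acylcarnitines at the outer mitochondrial membrane and is the controlled step of entry. It was at 797, 671, 412, 813 and 453 CPM in HKO replicates 1 to 5 and 501, 591, 378, 443 and 624 CPM in flox replicates 1 to 5. HKO replicates 1, 2 and 4 were above every flox library and HKO replicates 3 and 5 were not, and the log2 difference was 0.31 ± 0.22 (edgeR adjusted p = 0.522). Slc25a20, which exchanges carnitine and acylcarnitine across the inner membrane, averaged 171 ± 18.3 CPM in HKO and 142 ± 36.6 CPM in flox. Cpt2, which returns the acyl group to coenzyme A in the matrix, averaged 256 ± 48.8 CPM in HKO and 213 ± 48.1 CPM in flox. Neither passed the test (edgeR adjusted p = 0.454 and 0.514).

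Mitochondrial beta-oxidation, with 10 genes, had a median of log2 fold changes of -0.01, from -0.51 to 0.15, and all 10 intervals lay within 2-fold. The acyl-CoA dehydrogenases act in order of chain length. Acadvl, for very long chains, averaged 155 ± 42.1 CPM in HKO and 165 ± 58.6 CPM in flox. Acadl, for long chains, averaged 324 ± 27.2 CPM in HKO and 328 ± 64.6 CPM in flox, with an interval of -0.35 to 0.31. Acadm, for medium chains, averaged 606 ± 62.8 CPM in HKO and 612 ± 145 CPM in flox, with an interval of -0.39 to 0.36. Their log2 fold changes were -0.09 for Acadvl, -0.02 for Acadl and -0.01 for Acadm, and the HKO and flox ranges of each overlapped.

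Acads, the short-chain dehydrogenase, was at 174, 146, 130.1, 144 and 149 CPM in HKO replicates 1 to 5 and 204, 273, 143, 146 and 184 CPM in flox replicates 1 to 5. Flox replicates 1, 2 and 5 were above all HKO libraries and flox replicates 3 and 4 lay among them, and the log2 fold change of -0.36 ± 0.18 did not pass (edgeR adjusted p = 0.34). Hadh, the 3-hydroxyacyl-CoA dehydrogenase for short chains, had the lowest log2 fold change of these 10. Its level was 364, 264, 236, 305 and 275 CPM in HKO replicates 1 to 5 and 469, 613, 333, 278 and 361 CPM in flox replicates 1 to 5. Flox replicates 1 and 2 were above every HKO library and the other 3 lay among them, giving a log2 fold change of -0.51 ± 0.21 (unadjusted p = 0.0287, edgeR adjusted p = 0.221).

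Hadha and Hadhb encode the subunits of the trifunctional protein, which carries out the later steps on long chains. Hadha averaged 431 ± 89.2 CPM in HKO and 401 ± 114 CPM in flox, and Hadhb averaged 279 ± 73.2 CPM in HKO and 251 ± 68.6 CPM in flox. The ratio of Hadha to Hadhb was 1.57 ± 0.187 in HKO and 1.63 ± 0.292 in flox (SD, n = 5 each), with overlapping groups. Hadhb has near-identical predicted copies, Gm13910 and Gm9108, so its count could depend on how shared reads were assigned; Gm9108 had 110 counts over HKO and 120 over flox.

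Acaa2, the mitochondrial thiolase, was at 1036 to 1298 CPM in HKO and 936 to 1277 CPM in flox (log2 fold change 0.13 ± 0.14). Eci1 and Decr1, the isomerase and reductase that handle unsaturated chains, had log2 fold changes of -0.01 ± 0.21 and 0.01 ± 0.21. Eci1 was at 209, 199.6, 189, 180.4 and 187 CPM in HKO replicates 1 to 5 and 185, 301, 218, 122 and 147 CPM in flox replicates 1 to 5. The HKO libraries lay close together in the middle of the wider flox range.

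Electrons from the dehydrogenases pass to the respiratory chain through the flavoprotein encoded by Etfa and Etfb and the oxidoreductase encoded by Etfdh. Etfa averaged 365 ± 26.9 CPM in HKO and 362 ± 61.4 CPM in flox, and Etfdh averaged 347 ± 75.3 CPM in HKO and 316 ± 86.2 CPM in flox, with edgeR adjusted p of 0.98 and 0.81. Etfb was at 53.2, 47.1, 51.3, 27.96 and 47.1 CPM in HKO replicates 1 to 5 and 14.01, 61.5, 61.9, 44.0 and 33.9 CPM in flox replicates 1 to 5. It was lowest in HKO replicate 4 among the HKO libraries and in flox replicate 1 among the flox libraries, while Etfa was not the lowest in either. Etfb shares 99.7% identity with the predicted gene Gm45233 over 70.1% of its transcript.

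Ketone body formation is represented by Bdh1, which interconverts acetoacetate and beta-hydroxybutyrate. Bdh1 was at 296, 228, 235, 256 and 207 CPM in HKO replicates 1 to 5 and 286, 396, 280.1, 193 and 380.4 CPM in flox replicates 1 to 5. The flox libraries 2 and 5 were above all HKO libraries and flox replicate 4 below them all, and the log2 difference was -0.33 ± 0.19 (edgeR adjusted p = 0.417).

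Of the 7 peroxisomal genes 0 were called, and the median of their log2 fold changes was 0.16. Eci2, an isomerase of unsaturated chains found in peroxisomes and mitochondria, was the gene of the 35 whose groups did not overlap. It was at 377, 361, 409.9, 384 and 386 CPM in HKO replicates 1 to 5 and 288, 329.5, 339.7, 255 and 336 CPM in flox replicates 1 to 5. Every HKO library was above every flox library, by a mean of 1.24-fold (log2 fold change 0.31 ± 0.13, unadjusted p = 0.0313, edgeR adjusted p = 0.232).

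Ehhadh, the bifunctional hydratase and dehydrogenase, varied widely between libraries. It was at 737, 884, 401, 1418 and 514 CPM in HKO replicates 1 to 5 and 692, 1596, 321, 219 and 687 CPM in flox replicates 1 to 5. Values spread over several-fold in both groups, highest in flox replicate 2 and lowest in flox replicate 4, and the interval of its log2 fold change, -0.83 to 1.17, allows more than 2-fold upward. Hsd17b4, which does the same steps for branched chains, had a log2 fold change of -0.01 ± 0.19, and Decr2, the peroxisomal reductase, one of 0.04 ± 0.15. Pex11a, a PPAR-alpha target that promotes peroxisome division, averaged 211 ± 55.6 CPM in HKO and 149.6 ± 49.97 CPM in flox (log2 fold change 0.49 ± 0.25, edgeR adjusted p = 0.335).

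Acaa1a and Acaa1b encode peroxisomal thiolases, both listed on chromosome 9. In GENCODE M21 transcripts their coding sequences are 96.5% identical, with 327 bases as the longest shared run. The 90 coding bases from position 592 show how little a read may have to tell them apart, with capitals at the 2 positions where they differ, 5′ to 3′.
Acaa1a: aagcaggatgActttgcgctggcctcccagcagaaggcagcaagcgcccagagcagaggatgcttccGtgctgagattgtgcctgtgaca
Acaa1b: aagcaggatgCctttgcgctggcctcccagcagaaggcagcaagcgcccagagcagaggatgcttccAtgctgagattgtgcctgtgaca
Acaa1b was at 1467, 1906, 1105, 1434 and 999.6 CPM in HKO replicates 1 to 5 and 1207, 3834, 1233, 664 and 1539.7 CPM in flox replicates 1 to 5. Flox replicate 2 stood above every other library. Acaa1a was at 321 to 438 CPM in HKO and 281 to 396 CPM in flox, with log2 fold changes of 0.16 ± 0.15 for Acaa1a and -0.29 ± 0.37 for Acaa1b, neither called. Without flox replicate 2 that of Acaa1b was 0.25, so its sign rests on that library. The sum of both was 1321 to 2344 CPM in HKO and 952 to 4230.0 CPM in flox. It does not depend on how the counted reads were divided between them, but it would miss shared reads that were discarded. Whether any were discarded is not stated.

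Acyl-CoA thioesterases split acyl-CoA into free fatty acid and coenzyme A. Acot1 works in the cytosol, Acot2 in mitochondria, and Acot3, Acot4 and Acot8 in peroxisomes. Acot1 to Acot4 are listed together on chromosome 12, and the coding sequences of Acot1 and Acot2 are 95.3% identical where they align, with a longest shared run of 273 bases. Acot1 and Acot3 are 83.9% identical. Counts of both could depend on how shared reads were assigned. A stretch of 90 aligned coding bases, from position 523 of Acot1 and 646 of Acot2, is shown because the balance of this pair differed between the groups. Capitals mark the 4 positions at which they differ, 5′ to 3′.
Acot1: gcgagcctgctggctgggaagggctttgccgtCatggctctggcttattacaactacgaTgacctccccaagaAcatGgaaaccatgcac
Acot2: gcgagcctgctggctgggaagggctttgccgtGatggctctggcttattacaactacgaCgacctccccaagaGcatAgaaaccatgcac

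Acot1 had the largest positive log2 fold change of the 35. Its level was 213, 161, 116, 253 and 163 CPM in HKO replicates 1 to 5 and 57.7, 199, 60.7, 32.7 and 126 CPM in flox replicates 1 to 5. Flox replicates 2 and 5 lay within the HKO range, and flox replicates 1, 3 and 4 were below every HKO library. The log2 fold change was 0.93 ± 0.40, a 1.90-fold difference (unadjusted p = 0.0345, edgeR adjusted p = 0.246).

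Acot2 was at 28.6, 22.6, 13.02, 34.6 and 21.2 CPM in HKO replicates 1 to 5 and 18.1, 49.1, 13.5, 6.53 and 57.2 CPM in flox replicates 1 to 5. The HKO libraries lay inside the flox range, and the log2 difference was -0.27 ± 0.47 (edgeR adjusted p = 0.838). Acot3 was at 32.3 to 64.3 CPM in HKO and 17.7 to 89.5 CPM in flox and overlaps the antisense gene 4732463B04Rik, which had 14.6% as many counts. Acot4 averaged 145 ± 36.2 CPM in HKO and 136 ± 47.5 CPM in flox. Acot8 averaged 21.1 ± 2.28 CPM in HKO and 18.1 ± 2.82 CPM in flox and overlaps the opposite-strand gene Snx21, whose counts came to 59.4% of its own; whether reads were counted by strand is not stated.

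Acot1 was then set against its relatives within each library. The ratio of Acot1 to Acot2 was 7.46, 7.097, 8.88, 7.31 and 7.71 in HKO replicates 1 to 5 and 3.19, 4.06, 4.498, 5.0 and 2.198 in flox replicates 1 to 5. All HKO libraries were above all flox libraries, with means of 7.69 ± 0.7002 in HKO and 3.79 ± 1.11 in flox (SD, n = 5 each). The ratio of Acot1 to Acot3 was 3.39, 3.896, 3.57, 3.94 and 5.05 in HKO replicates 1 to 5 and 3.26, 2.49, 1.42, 1.098 and 1.404 in flox replicates 1 to 5, and again the groups did not overlap. These were 2 of 10 ratios among the 5 thioesterases and 2 of 16 ratios examined among related members. Both ratios were chosen after the values were seen and carry no test. Acot1 is in both, so they are not independent, and the share for ratios of other gene pairs was not computed. The ratio of Acot1 to Acot4 overlapped between groups (1.02 to 1.36 in HKO and 0.289 to 1.09 in flox). That of Acot1 to Acot8 overlapped as well (6.20 to 11.1 in HKO and 1.95 to 8.82 in flox). The ratio of Acot2 to Acot3 overlapped between groups, as did that of Acaa1a to Acaa1b. The sum of Acot1 and Acot2 was 129 to 288 CPM in HKO and 39.2 to 248 CPM in flox, so the groups overlapped in the sum.

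**Figure D2:**
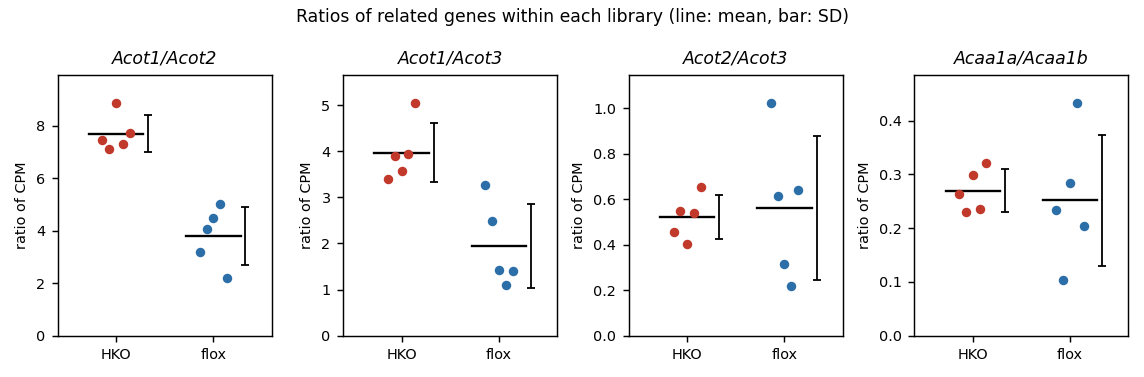
Ratio of CPM values within each library for 4 pairs of related genes; each point is 1 library, the line is the mean and the bar the SD of 5 libraries, HKO left of flox. The Acot1/Acot2 ratio runs from 7.097 to 8.88 in HKO and from 2.198 to 5.0 in flox, while Acot2/Acot3 and Acaa1a/Acaa1b overlap.

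The 4 other PPAR-alpha targets have roles outside the oxidation steps. Angptl4, a secreted inhibitor of lipoprotein lipase, had the smallest p of the 35. It was at 268, 228, 341, 199.9 and 440.3 CPM in HKO replicates 1 to 5 and 154, 203, 234, 166 and 208 CPM in flox replicates 1 to 5. HKO replicates 1, 3 and 5 were above every flox library and HKO replicates 2 and 4 were not, with a log2 fold change of 0.61 ± 0.21, a 1.53-fold difference (unadjusted p = 0.0115, edgeR adjusted p = 0.136).

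Pdk4 inhibits pyruvate dehydrogenase and so spares glucose when fat is burned. It was at 5.19, 4.47, 24.6, 29.2 and 54.1 CPM in HKO replicates 1 to 5 and 9.97, 12.7, 6.72, 4.58 and 289 CPM in flox replicates 1 to 5. Flox replicate 5 stood far above all others, and the HKO libraries fell into a low pair (1 and 2) and 3 higher ones. The log2 fold change was -1.46 ± 1.06 (edgeR adjusted p = 0.539) and 1.48 without flox replicate 5 (edgeR adjusted p = 0.302), so its sign rests on that library. Fgf21, a fasting hormone made by liver, was at 17.8, 5.61, 11.9, 18.5 and 19.7 CPM in HKO replicates 1 to 5 and 3.06, 5.79, 7.97, 1.26 and 35.7 CPM in flox replicates 1 to 5. Flox replicate 5 was again the highest, and the log2 fold change of 0.45 ± 0.65 (edgeR adjusted p = 0.798) became 1.70 without it (edgeR adjusted p = 0.0837). Vnn1, a surface pantetheinase, was at 142 to 335 CPM in HKO and 82.3 to 325 CPM in flox, with a log2 fold change of 0.13 ± 0.31.

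Genes of the fasting response and of the clock varied between libraries as well. Igfbp1, a liver gene held down by insulin and named after its values were seen, was at 107, 31.6, 134, 82.8 and 189 CPM in HKO replicates 1 to 5 and 89.6, 61.1, 81.6, 19.9 and 507 CPM in flox replicates 1 to 5, highest in flox replicate 5 like Pdk4 and Fgf21. Of 6 fasting response genes outside the PPAR-alpha pathway 0 were called, among them Pck1 (3523 ± 671 CPM in HKO and 2510.2 ± 565 CPM in flox) and Tat (1318 ± 286 CPM in HKO and 1313 ± 181 CPM in flox). Of 15 clock genes 0 were called, among them Tef and Nr1d2. The clock output gene Dbp, named after its values were seen, was at 94.5, 103, 33.8, 41.97 and 2.65 CPM in HKO replicates 1 to 5 and 25.9, 19.6, 44.6, 129 and 44.6 CPM in flox replicates 1 to 5, a wide range in both groups. The part of feeding or sampling time in the levels of the members was not tested.

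**Figure D3:**
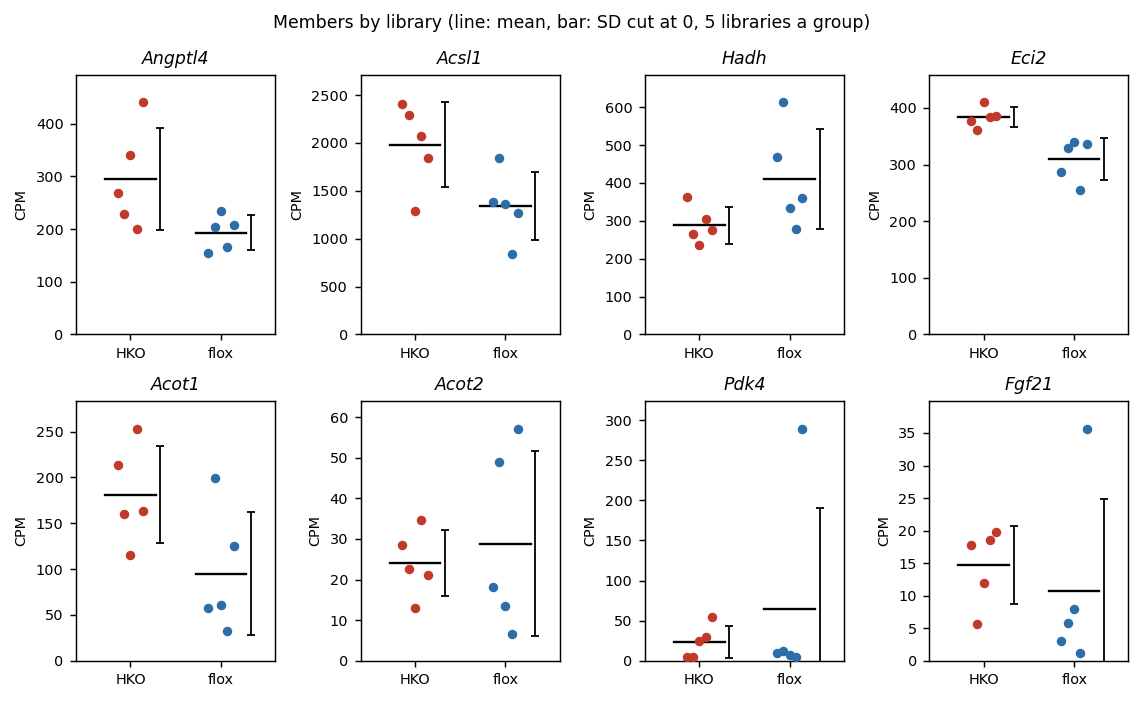
CPM of 8 members in each library, HKO left of flox; points are libraries, the line is the mean and the bar the SD of 5 libraries, cut at 0. Eci2 separates the groups, Angptl4, Acsl1, Hadh and Acot1 overlap in part, and Pdk4 and Fgf21 each have flox replicate 5 far above the other flox libraries.

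The members varied together across libraries. In HKO, replicate 4 was the highest for 15 of 35 members (42.9%, against 27.0% of all tested genes) and replicate 3 the lowest for 22 (62.9%, against 22.5%). In flox, replicate 2 was the highest for 23 of 35 (65.7%, against 17.4%) and replicate 4 the lowest for 23 (65.7%, against 15.4%). With library totals in place of TMM scaling, flox replicate 2 was the highest for 20 and flox replicate 4 the lowest for 25. This order was not confined to the members. Cyp4a10 and Cyp4a14, PPAR-alpha targets outside them picked after their values were seen, were also highest within flox in replicate 2 (2347 and 4175 CPM). Both were lowest within flox in replicate 4 (630 and 1022 CPM). Ucp2, from the same list, was instead highest in flox replicate 5 and lowest within flox in replicate 3. The median of the members, as log2 CPM relative to each gene's mean over the 10 libraries, was 0.20, 0.03, -0.24, 0.30 and -0.05 in HKO replicates 1 to 5 and -0.10, 0.40, -0.15, -0.49 and 0.03 in flox replicates 1 to 5. The HKO medians thus lay between the highest and lowest flox libraries. The summed macrophage markers were 151, 196, 264, 186 and 126 CPM in HKO replicates 1 to 5 and 460.0, 522, 340.0, 784 and 836 CPM in flox replicates 1 to 5. Their part in the order of the libraries was not tested.

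The spread within HKO was smaller than within flox for most members. The SD of log2 CPM was smaller in HKO and larger in flox for 33 of 35 members, the exceptions being Cpt1a and Angptl4, while among all tested genes 57.4% had the larger SD in flox. With library totals in place of TMM scaling it was larger in flox for 29 members, against 61.4% of all tested genes. Related lists also had it for most genes: 12 of 14 hepatocyte markers, 20 of 24 other oxidation genes and 14 of 16 further PPAR-alpha targets. Among regulators it was 8 of 16 and among clock genes 2 of 15. The median SD over the members was 0.296 in HKO and 0.417 in flox. As a ratio of flox to HKO the contrast was widest for Eci1, with an SD of 0.0839 in HKO and 0.506 in flox. Without flox replicate 2 the count was 27 and without flox replicate 4 it was 29. Without both it was 20, or 57.1% of the members, against 57.3% of all tested genes.

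**Figure D4:**
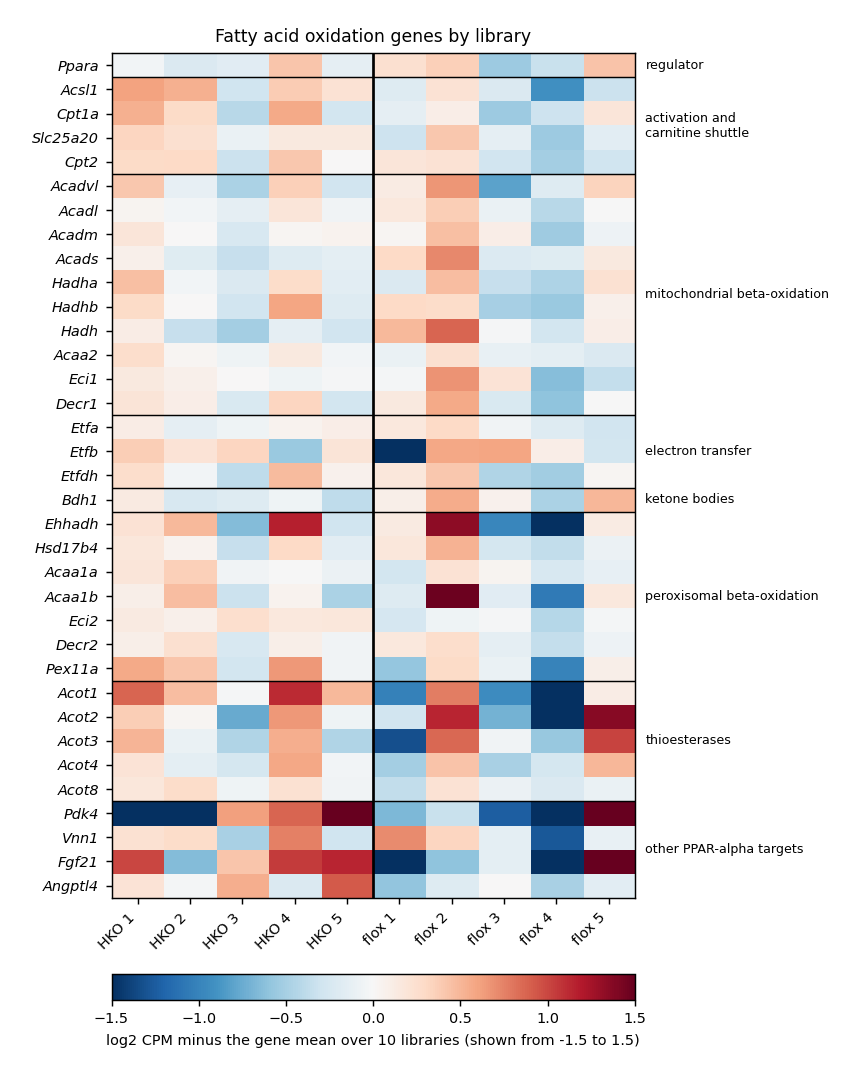
Heat map of the 35 genes (rows, grouped by role) in 10 libraries (columns, HKO left of flox); colour is log2 CPM minus the gene's mean over all libraries, shown from -1.5 to 1.5. Flox replicate 2 is red and flox replicate 4 blue in most rows, while most HKO columns are paler.

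Read counts per kilobase of the deposited gene length allow levels to be compared between genes. On this scale of CPM per kilobase Acaa1b was the most abundant member (705 in HKO and 864 in flox), followed by Acaa2 (751 in HKO and 687 in flox) and Ehhadh (265 in HKO and 236 in flox). Acaa1b and Acaa2 exchanged first place between the groups, and the spread of Acaa1b in flox covers the gap. Low levels were those of Pdk4 (6.696 in HKO and 18.4 in flox), Acot8 (10.6 in HKO and 9.08 in flox) and Acot2 (10.9 in HKO and 13.1 in flox), and the flox level of Pdk4 rests on replicate 5. The 10 enzymes of mitochondrial beta-oxidation ran from 42.3 in HKO and 38.0 in flox for Hadhb up to Acaa2.

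Other genes of the same pathway, from a list of 24 that leaves out the members, gave 3 that fell and 0 that rose, with a median log2 fold change of 0.10. Of all tested genes, 3.07% were called lower and 0.917% higher. An unadjusted edgeR p under 0.05 was found for 10 of the 24, against 16.9% of all tested genes. The HKO and flox libraries did not overlap for 5 of the 24, against 5.37% of all tested genes. The list itself was not tested. Abcd2, a transporter that brings very long fatty acids into peroxisomes, was at 31.3, 8.89, 23.5, 27.2 and 24.97 CPM in HKO replicates 1 to 5 and 58.1, 71.5, 45.8, 34.03 and 59.03 CPM in flox replicates 1 to 5. The groups did not overlap, and the log2 difference was -1.21 ± 0.28 (edgeR adjusted p = 0.0283). The call was kept in 12 of 18 alternatives, with edgeR adjusted p up to 0.0702 without flox replicate 2. Leaving out HKO replicate 4 or 5, or flox replicate 1 or 5, also ended it, as did the replicate number as a block.

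Abcd3, another transporter of the peroxisomal membrane, averaged 641 ± 183 CPM in HKO and 565 ± 168 CPM in flox, and the log2 difference was 0.18 ± 0.24 (edgeR adjusted p = 0.765); whether it responds differently from Abcd2 was not tested. Acad10, an acyl-CoA dehydrogenase family member, averaged 27.4 ± 4.92 CPM in HKO and 46.5 ± 12.5 CPM in flox, and changed by -0.76 ± 0.19 on the log2 scale (edgeR adjusted p = 0.0336). Leaving out any HKO library but replicate 2, or flox replicate 2 or 5, ended its call, with adjusted p up to 0.0885. Oxct1, the enzyme by which other tissues use ketone bodies and which hepatocytes nearly lack, was at 1.102 to 2.14 CPM in HKO and 2.62 to 6.699 CPM in flox, and changed by -1.30 ± 0.31 on the log2 scale (edgeR adjusted p = 0.0307). Leaving out HKO replicate 2, 4 or 5, or flox replicate 4 or 5, ended that call, as did the replicate block, with adjusted p up to 0.0928. Phyh and Slc27a2, named after their values were seen, serve branched-chain oxidation and very-long-chain activation and were higher in every HKO library than in any flox library. Their log2 fold changes were 0.63 ± 0.17 and 0.54 ± 0.15 (edgeR adjusted p = 0.0615 and 0.0649). Uncalled genes of the same list went both ways. Slc22a5 had 0.80 ± 0.24, Acad9 had -0.66 ± 0.20 and Acad12 had -0.96 ± 0.34 (edgeR adjusted p = 0.0871, 0.0871 and 0.144). Their groups overlapped, and they too were named after their values were seen.

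Of 16 further PPAR-alpha targets, 2 fell and 0 rose, with a median log2 fold change of 0.35. Of all tested genes, 3.07% were called lower and 0.917% higher. An unadjusted edgeR p under 0.05 was found for 4 of the 16, against 16.9% of all tested genes. The HKO and flox libraries did not overlap for 3 of the 16, against 5.37% of all tested genes. The fatty acid transporter gene Cd36 was at 66.3, 37.1, 67.7, 110.2 and 68.8 CPM in HKO and 542, 428, 206, 113 and 283 CPM in flox, and changed by -2.17 ± 0.38 on the log2 scale (edgeR adjusted p = 0.00978). Ucp2, a mitochondrial carrier, was at 17.4, 24.9, 22.4, 14.8 and 14.9 CPM in HKO and 42.5, 50.4, 25.4, 38.3 and 76.8 CPM in flox, and changed by -1.31 ± 0.26 on the log2 scale (edgeR adjusted p = 0.0148). In both, every HKO library was below every flox library. Macrophages also express Cd36 and Ucp2, and the 14 macrophage markers fell in HKO as given above, with their summed level at 126 to 264 CPM in HKO and 340.0 to 836 CPM in flox. Their part in these calls and in those of Abcd2, Acad10 and Oxct1 was not tested. The omega-hydroxylase genes Cyp4a10 and Cyp4a14, classical PPAR-alpha targets named after their values were seen, had log2 fold changes of 0.58 ± 0.31 and 0.49 ± 0.30 (edgeR adjusted p = 0.371 and 0.449).

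**Figure D5:**
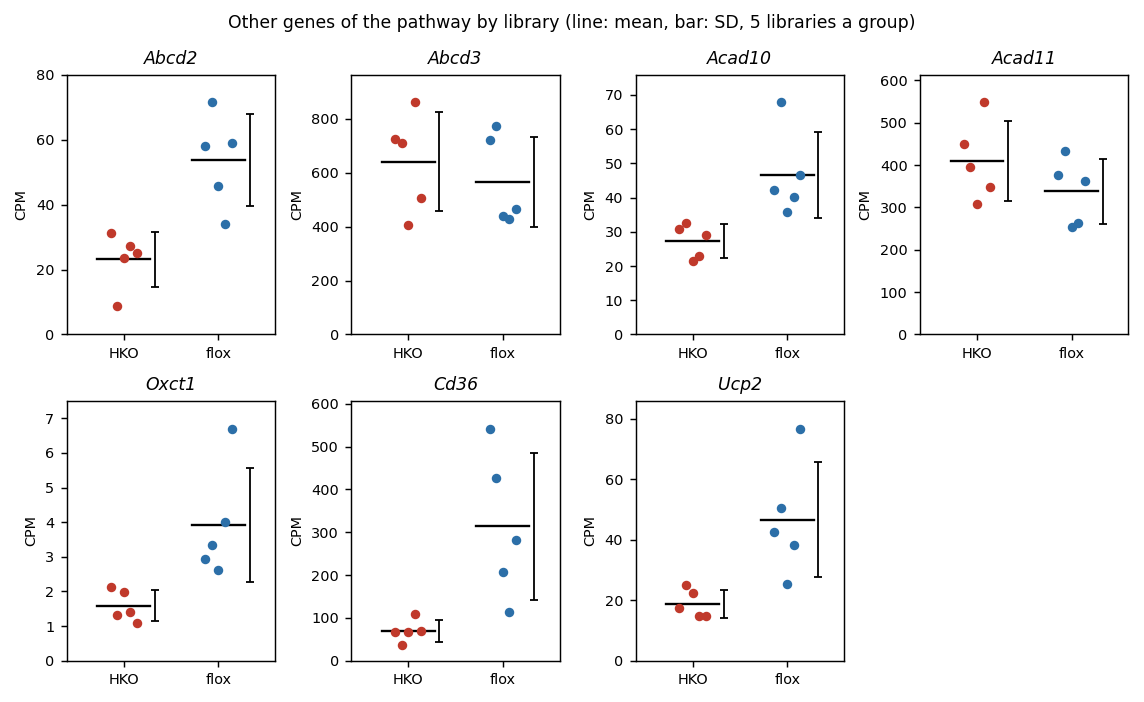
CPM of 7 genes of the pathway that are not among the 35, in each library, HKO left of flox; points are libraries, the line is the mean and the bar the SD of 5 libraries. Abcd2, Acad10, Oxct1, Cd36 and Ucp2 lie lower in every HKO library than in any flox library, while Abcd3 and Acad11 overlap.

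Because the members varied together, their promoters were searched for the hexamer AGGTCA, the core motif of PPAR-alpha and many other nuclear receptors, on both strands. RefSeq windows from 250 bases before to 50 after the start of transcription (GRCm38.p6) were found for 30 of the 35 genes. The hexamer was in windows of 5 of these 30 genes, 18.2% of their 33 windows, against 16.3% of all 32851 windows. The direct repeat of AGGTCA with 1 base between the copies was in 0 of the 33, against 0.0396% of all windows. The same repeat of AGGNCA, where N is any base, which includes the first, was in 0, against 0.381%. The 4 upstream hexamers are shown in 30-base stretches on the gene's strand, 5′ to 3′, with the hexamer or its reverse complement in capitals; the fifth gene, Acot3, has its match after the start.
Acadm, chr3:153944864-153944893, minus strand: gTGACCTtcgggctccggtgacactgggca
Acadvl, chr11:70015498-70015527, minus strand: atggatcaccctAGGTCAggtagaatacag
Acot4, chr12:84038354-84038383, plus strand: agccccgaagcaTGACCTttggccggtctg
Cpt1a, chr19:3323195-3323224, plus strand: cagtttccttacTGACCTcctccccgcagc
The genes with and without the hexamer had log2 fold changes on both sides of 0, and a match is a description of these letters only.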

How the data were processed

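RNA was measured in 5 HKO and 5 flox mouse liver libraries, grouped by the sample titles. The authors deposited raw counts of reads per gene; the submitters' processing notes name mm10 and DESeq2, and no source used here names the aligner, annotation or strand setting. Deposited gene lengths (bases, per the file headers) served only for CPM per kilobase. HKO was compared with flox by the quasi-likelihood F-test of edgeR 4.0.16 (R 4.3.3, TMM, filterByExpr), adjusted by Benjamini-Hochberg over 14068 tested genes at 0.05. Each SE was derived from the fold change and its F statistic, and log2 CPM used a prior count of 2. Members and gene lists were chosen with earlier results of these data known, so no list was tested. Context genes were named where called (up to 4 a list), or else the 2 most abundant. Some genes of the pathway are not reported here. Alternatives were DESeq2 1.42.0, limma-voom 3.58.1, other scaling, filters and dispersion, a replicate block, and leaving out each library. Within groups, libraries differed by at least 24.6 in chi-square per degree of freedom, so none was counted as a duplicate. Copies (at least 95% identity over 50% of a transcript; 6 members) came from BLAST 2.17.0 against GENCODE M21.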

Additional observations from a re-analysis of the deposited data

Results flagged for a closer look

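Among 70 sets of 5 libraries (35 genes in each group), 4 held a library whose distance from its nearest neighbour exceeded Dixon's limit of 0.71 of the whole range on the log2 CPM scale. Chance alone flags about 1 in 20 such sets. HKO replicate 4 was high for Ppara (gap over range 0.7196). Flox replicate 2 was high for Acaa2 (0.741). HKO replicate 4 was low for Etfb (0.809). Flox replicate 5 was high for Pdk4 (0.757), and this was the case in which leaving out the library turned the sign of the fold change.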

How the results depend on the processing

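The count of members called was 0 in all 18 alternatives but the fit without flox replicate 2, ranging from 0 to 1 with a library left out. Over all genes, DESeq2 called 1021 (560 of the 561 among them), and 289 to 673 were called with a library left out; the causes were not tested. No filter on low counts gave 840. The count of members with the larger SD in flox was 27 to 33 with a library left out. Without flox replicates 2 and 4, an alternative chosen after seeing the data, it was 20. That was 57.1% of the members, against 57.3% of all tested genes, with a median member SD of 0.296 in HKO and 0.286 in flox. Flox replicates 2 and 4 are the highest and lowest flox libraries for most members, so a smaller flox SD follows from leaving them out. The replicate block called 448 genes and 0 members, and same-numbered libraries deviated together (correlation over 0.1) for 1 of 5 numbers (-0.09, -0.07, 0.24, 0.04 and -0.12), so the numbers were not taken as pairs. Of the members' log2 fold changes under the alternatives, 569 kept direction and side of the threshold, 60 changed sign and 1 was newly called; for context genes these were 485, 18 and 5, with 32 calls lost. Sign changes, in log2 fold change, were as follows. Library totals alone gave Hadha -0.00428, Decr1 -0.0815, Etfa -0.0842, Etfb -0.0303, Decr2 -0.0519, Acot4 -0.0321, Hnf4a -0.012, Tat -0.11 and Dcn -0.0654, with the median of all genes at -0.10. No filter gave Acadm 0.0012, Eci1 0.0027 and Hsd17b4 0.00448. Limma-voom gave Acadm 0.0133, Eci1 0.058, Hsd17b4 0.00747, Acot2 0.0882, Acot3 0.0209 and Tat -0.00926. The replicate block gave Acadm 0.0139, Eci1 0.060, Hsd17b4 0.0071, Acot2 0.0256 and Tat -0.00909. With a library left out, the ranges were Acadl -0.10 to 0.0796, Etfb -0.15 to 0.24, Hsd17b4 -0.0882 to 0.14, Acot4 -0.0529 to 0.26, Tat -0.12 to 0.0734, Acadvl -0.25 to 0.0943, Acadm -0.12 to 0.11, Eci1 -0.13 to 0.20, Acaa1b -0.49 to 0.25, Acot2 -0.52 to 0.14, Acot3 -0.38 to 0.13, Dcn -0.0193 to 0.16, Decr1 -0.10 to 0.19, Ehhadh -0.15 to 0.72, Etfa -0.0463 to 0.0976, Decr2 -0.0251 to 0.12, Vnn1 -0.0671 to 0.36, Hnf4a -0.0238 to 0.22, Ppara -0.21 to 0.0204, Pdk4 -2.02 to 1.48, Spp1 -0.58 to 0.18, Reln -0.20 to 0.0265 and Rxra -0.17 to 0.0144. Depth limits the values with few reads most, and the lowest among the members was Fgf21 in flox replicate 4 (1.26 CPM).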
